A study of Schizosaccharomyces pombe with 20 samples.

Results

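The 2 arrays labelled SPAC18G6.13 compared a Schizosaccharomyces pombe strain carrying the KanR-marked deletion of that gene (∆SPAC18G6.13-KanR, Bioneer) with a wild-type strain, on splicing-sensitive 2-colour microarrays. The wild type is labelled ED666, also from Bioneer. Both strains were grown in YES medium, inoculated at an OD of 0.05 in 25 mL and collected at 0.5, and the 2 arrays hold separately grown cultures. They belong to a set of 20 arrays of 12 deletion strains (8 with 2 arrays, 4 with 1), each labelled as read against the same wild type. All features with a value on both SPAC18G6.13 arrays were taken: 10702 of the 14677 exon, intron and junction probes, namely 4666 of 5098 exon probes, 1806 of 4885 intron probes and 4230 of 4694 junction probes. Of 4673 splicing events with an intron and a matching junction probe, 1562 could be measured on both arrays. Intron values were present for 2042 probes on replicate 1 and 2797 on replicate 2, against 730 to 4857 over the series, and what left a value empty is a rule not given in the sources used here.

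Splicing removes introns from a precursor transcript (pre-mRNA) and joins the exons. An intron probe reads pre-mRNA, an exon-exon junction probe reads mature mRNA, and an exon probe reads the total of both. A splicing defect is known to leave more pre-mRNA and less mature mRNA. The product of SPAC18G6.13 was found in earlier purifications with Red1, the zinc-finger protein of the nuclear RNA silencing complex (NURS). That complex directs meiotic and other unwanted transcripts to the nuclear exosome. Each value below is a log2 ratio of the labelled deletion strain over wild type, so 1 stands for a doubling. The pre-mRNA over mature mRNA ratio is the intron value minus the junction value of the same array.

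The deleted gene itself did not mark these arrays clearly. Its single exon probe read -0.41 and -0.26 on the SPAC18G6.13 arrays, inside the range of -0.83 to 1.22 on the 18 arrays of the other strains (limma, mean -0.33, SE 0.210, adjusted p = 0.40). For scale, gpl1, the gene labelled SPAC20H4.06c, read -3.92 and -3.75 on the arrays of its own deletion strain. Whether the probe lies in the deleted stretch is not known, and RefSeq annotates a long noncoding RNA across the gene. The label is therefore used here as a name, and no direction below was checked by the target. The neighbouring gene SPAC18G6.12c, picked after its values were seen, read 0.70 and 0.69, above all 18 other arrays, of which the highest was 0.27 (adjusted p = 0.047). Its difference from the mean of the other strains did not pass the test (0.90, SE 0.161, adjusted p = 0.10).

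Other genes marked the strain as unlike wild type, and most other strains shared them. ura4, an enzyme of uracil synthesis used as a strain marker, read -4.97 and -6.26 on the SPAC18G6.13 arrays, against a median of -5.41 on the other arrays. The M mating-type transcripts mat1-Mc (-4.28 and -3.68) and mfm2, an M-factor pheromone precursor (-5.77 and -4.91), had medians of -4.15 and -4.98 on the other arrays. There were exceptions: mat1-Mc read -0.32 and mfm2 -0.21 on smd3 replicate 1, and ura4 read -0.45 on pwi1 replicate 1. On replicate 2 of those strains they read -3.75, -4.97 and -6.49. Why those arrays differed was not tested. These 3 genes fell against wild type on the SPAC18G6.13 arrays (adjusted p = 0.034, 0.015 and 0.012). Every comparison with wild type below also holds this difference between the strains, and its part in the results was not tested. The reference strain is known from its label alone.

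Pre-mRNA was broadly higher relative to mature mRNA. The ratio rose for 444 of 1562 events (28.4%) and fell for 19 (1.22%), in limma with Benjamini-Hochberg adjustment over all events, and every called event had the same sign on both arrays. The median event stood at 0.49 on replicate 1 and 0.46 on replicate 2, and 394 of the risen events did so by at least 1. Both arrays were above 0 for 64.8% of events and both below 0 for 14.2%.

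**Figure D1:**
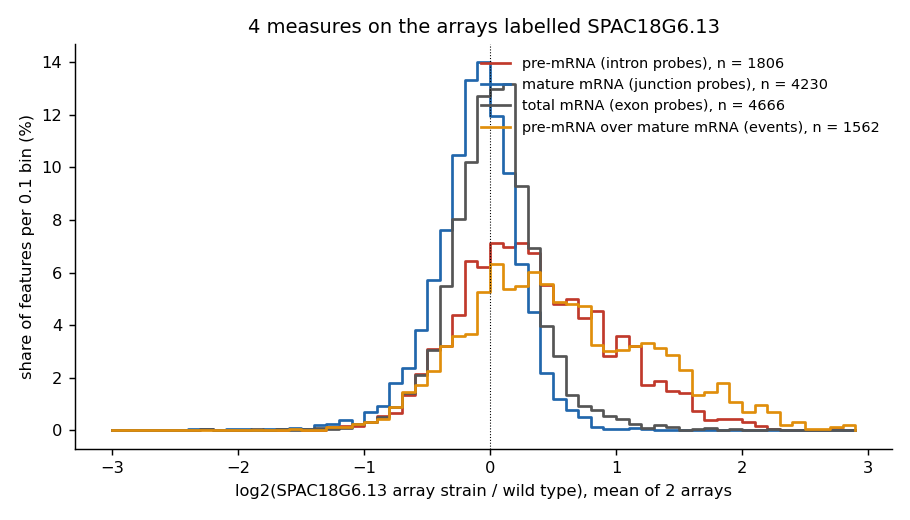
Distribution of the mean log2 ratio of the 2 SPAC18G6.13 arrays over wild type, in bins of 0.1 between -3 and 3, as the share of features per bin (vertical axis, %), for intron probes, junction probes, exon probes and the intron minus junction ratio. The ratio and the intron probes are shifted to the right of 0 (medians 0.47 and 0.30), junction probes slightly to the left (-0.09), and exon probes lie around 0 (0.03).

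Intron probes carried most of the shift. Of 1806 intron probes, 425 rose (23.5%) and 28 fell (1.55%), with a median of 0.30. Of 4230 junction probes, 105 fell (2.48%) and 8 rose (0.189%), with a median of -0.09. Among the 444 events whose ratio rose, the median was 1.03 for the intron probe, -0.38 for the junction probe and -0.08 for the exon probe of the gene (430 events with an exon value). The intron probe passed the test on its own in 324 of them, the junction probe in 49, both in 23 and neither in 94. Pre-mRNA above 0 together with mature mRNA below 0 was found in 48.1% of all events, and the opposite pattern in 8.77%. The SPAC18G6.13 arrays did not stand above the other strains in this. Over the 276 events with a value on all 20 arrays the median ratio was 0.76 and 0.59 on the SPAC18G6.13 arrays, against 0.12 to 1.38 on the other arrays, with ctr1 replicate 1, aar2 replicate 1 and both smd3 arrays above both.

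**Figure D2:**
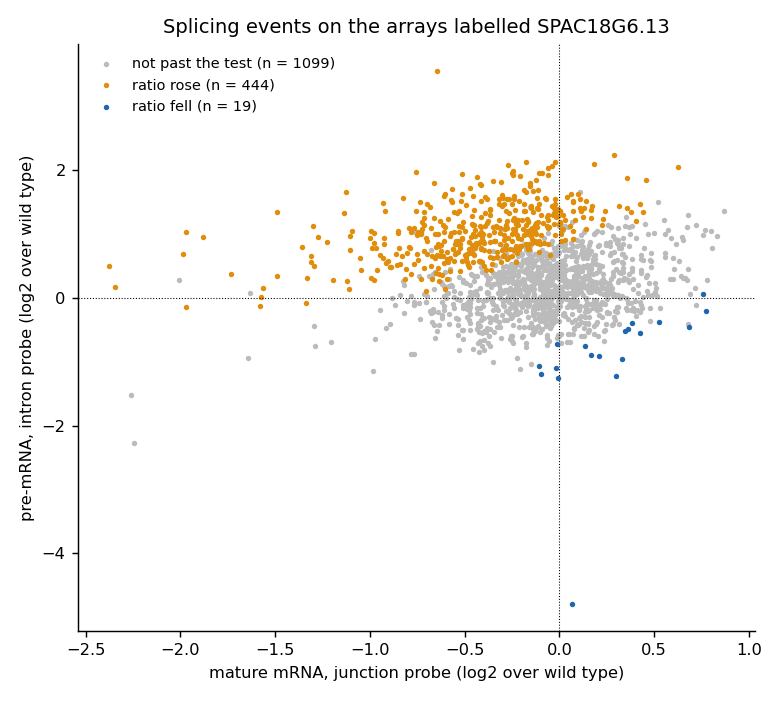
Each point is a splicing event, with the junction probe (mature mRNA) on the horizontal axis and the intron probe (pre-mRNA) on the vertical axis, both as mean log2 over wild type on the 2 SPAC18G6.13 arrays. Events whose ratio rose (444, orange) fill the upper left, those that fell (19, blue) lie to the lower right.

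These counts rest on both arrays and on the arrays that set the spread. With replicate 1 left out 33 events rose, and with replicate 2 left out 156 did. Without 4 arrays of other strains whose deleted gene was not clearly low either (both of smd3, SPCC162.01c and ctr1 replicate 2), 615 events rose and 39 fell. The deletion strain carried Cy3 and wild type Cy5 on every array, so that a dye effect and a shift shared by all strains cannot be told apart.

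The largest rise was in intron 1 of tom20, an import receptor of the mitochondrial outer membrane, at 4.057 and 4.350 on the SPAC18G6.13 arrays (mean 4.20, SE 0.868, adjusted p = 0.0031). The other strains had a median of 4.50 there, and the difference from their mean was -0.04 (SE 0.920, adjusted p = 0.99). Next came intron 2 of SPAC1834.12, with a ratio of 2.95 and 3.07 (adjusted p = 0.00057), and intron 1 of ago1, the Argonaute protein of RNA interference, with 3.85 and 1.89 (adjusted p = 0.0017). The 2 arrays of ago1 differed widely, and the junction probe made up most of its rise: it read -3.42 and -1.33. On the ctr1 arrays the ago1 ratio read 3.49 and 0.61, and the median of the 18 other arrays was 0.94. Ratios between 2.47 and 2.83 followed for intron 1 of mrm1 (a methyltransferase of mitochondrial rRNA), intron 2 of SPAC11H11.03c, intron 3 of nrk1, intron 1 of rer2 (a dehydrodolichyl diphosphate synthase), intron 3 of mug161, intron 1 of mcp7 (a meiotic recombination protein) and intron 2 of rpl3801 (ribosomal protein L38). Of these, nrk1 was the most even, at 2.78 and 2.79 (SE 0.275, adjusted p = 9.6e-05), and mug161 had the smallest p, at 2.81 and 2.53 (SE 0.263, adjusted p = 5.3e-05). The intron probe of mug161 read 0.51 and 0.85, so that the junction probe made up most of its rise. Of the 276 events with a value on all 20 arrays, none had both SPAC18G6.13 arrays above every other array.

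The largest fall, in the single intron of mug74, read -4.58 and -5.14 (SE 1.12, adjusted p = 0.0056), and the other strains were low as well (median -3.41). In chk1, the DNA damage checkpoint kinase, intron 6 read -2.08 and -0.97 (mean -1.52, adjusted p = 0.0046), both below the lowest of 11 other arrays (-0.81). In elo1, a fatty acid elongase, intron 3 of an alternative gene model read -1.27 and -1.31 (adjusted p = 0.0033). Introns 2 (0.31 and 0.47) and 1 (1.11 and 0.65) of the gene were above 0 without passing the test. The other falls among the largest 5 were intron 1 of SPAC23D3.17 (-1.24) and intron 2 of mug182 (-1.14). Over the 19 events that fell, the intron probe passed the test as lower in 9 and the junction probe as higher in none, with medians of -0.76 and 0.30.

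**Figure D3:**
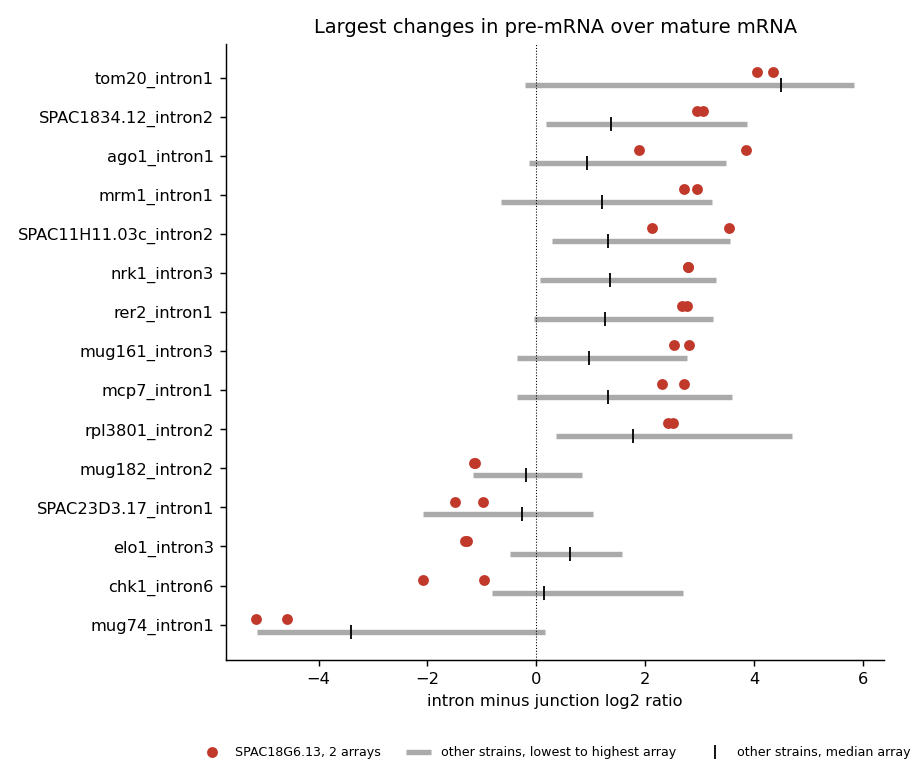
The 10 events with the largest rise and the 5 with the largest fall in the intron minus junction log2 ratio (horizontal axis). Red points are the 2 SPAC18G6.13 arrays, above the grey bars, which span the lowest to highest array of the other strains, with a black mark at their median. tom20 and mug74 lie close to the other strains, elo1 and chk1 below all of them.

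Calls were also counted per gene, with no test of the difference between introns of a gene. Of 307 genes with at least 2 measured events, 104 had some but not all events called as higher, 36 had all and 167 none. In 1 gene, tma23, an event was called each way, with intron 2 at 0.98 and 0.95 (adjusted p = 0.028) and intron 1 at -1.34 and -0.58 (adjusted p = 0.023). By position, 32.8% of 381 events in single-intron genes rose (median 0.56), 26.3% of 365 first introns (0.49), 24.9% of 413 internal introns (0.35) and 29.8% of 403 last introns (0.47). Genes with 2 to 5 introns had 288 of 1036 events called as higher (median 0.46), and genes with 6 or more had 31 of 145 (0.17). No test was made between these groups.

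Intron 1 of fet5 and intron 2 of pwi1 were the introns on which the study screened its deletion strains by sequencing. In that screen, with other cultures and another measure, the study called both as significantly less efficiently spliced in the SPAC18G6.13 deletion. The fet5 event rose, with 1.73 and 1.82 on the SPAC18G6.13 arrays (mean 1.78, SE 0.424, adjusted p = 0.0081). Its intron probe was at 1.42 and 1.65 and its junction probe at -0.31 and -0.16. The pwi1 event read 0.04 and 0.47 (adjusted p = 0.59), and its exon probe, for a gene that codes for a splicing factor, -0.06 and -0.07.

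The separate intron probes included genes without a testable ratio. Intron 1 of rpl2501, a ribosomal protein L25 gene, read 2.996 and 2.442 (SE 0.297, adjusted p = 0.00011), and its junction probe had a value on 1 SPAC18G6.13 array. The other 18 arrays reached 3.90 but had a median of 0.40, and the difference from the mean of the other strains was 2.07 (SE 0.315, adjusted p = 0.0027). Apart from tom20 and rpl2501, the largest rises on intron probes were in SPAC212.06c (4.21 and 2.31), SPBC21B10.09 (3.09 and 1.39) and til1 (3.42 and 0.91), all of them uneven between the arrays. The 5 largest rises on junction probes were smaller, between 0.70 and 1.23, and included mpn1, an exonuclease that trims U6 snRNA, at 0.85 and 0.82 (adjusted p = 0.014).

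One gene was low on 6 probes at once. cnp3, which encodes the centromere protein CENP-C, read -2.72 and -1.82 on intron 1 and -1.92 and -1.13 on intron 2. Its junction probes read -2.34 and -2.15, -2.39 and -2.13, and -1.79 and -1.62, and its exon probe -0.80 and -1.55, all past the test against wild type. abp2, the next gene on the array in the RefSeq order, which encodes a protein that binds replication origins, was low too, at -1.79 and -1.87 (SE 0.302, adjusted p = 0.016), below the lowest of the other arrays (-1.13). Against the mean of the other strains, intron 2 (-1.54, adjusted p = 0.024) and the first junctions (-1.90 and -1.69, adjusted p = 0.021 and 0.031) of cnp3 were lower. The last junction (adjusted p = 0.054), the exon probe (adjusted p = 0.65) and abp2 (adjusted p = 0.19) did not pass that test. The pht1 array was low for cnp3 as well, with -2.22 on intron 2 and -1.86 on the first junction. The genes on either side, mrpl44 (0.41 and -0.30) and naa35 (0.06 and 0.54), did not pass the test.

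**Figure D4:**
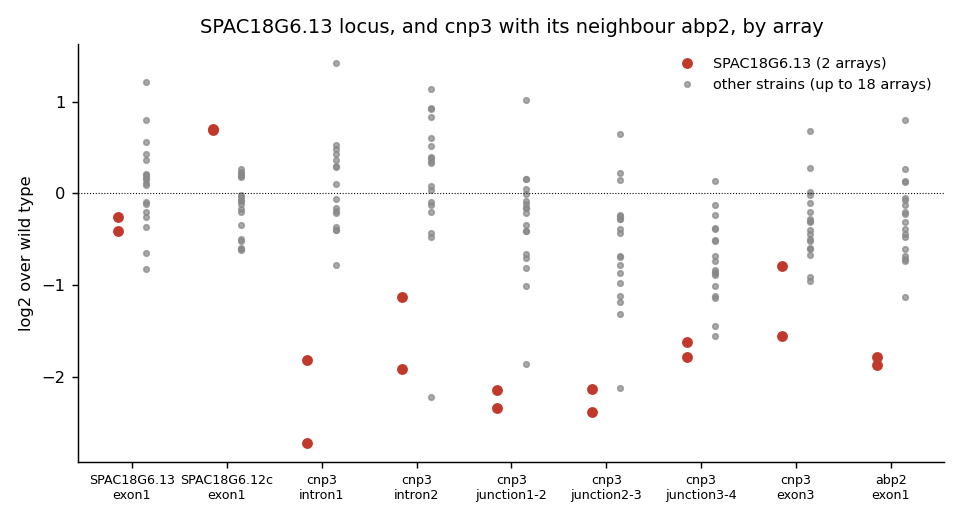
Log2 ratio over wild type (vertical axis) of the exon probes of SPAC18G6.13 and its neighbour SPAC18G6.12c, of 6 probes of cnp3 and of the exon probe of abp2. Red points are the 2 SPAC18G6.13 arrays and grey points, to their right, the arrays of the other strains. The SPAC18G6.13 probe lies among the grey points, and cnp3 and abp2 lie low.

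Total mRNA gave few calls. Of 4666 exon probes, 35 rose (0.75%) and 38 fell (0.814%), with a median of 0.03. The largest called change upward was that of ght5, the main high-affinity glucose transporter of fission yeast, at 4.14 and 4.52 on the SPAC18G6.13 arrays, a mean of 20.1 times wild type (4.33, SE 0.224, adjusted p = 1.2e-06). Both values were above every other array. The nearest were ppn1 at 3.47 and 3.30, the other strains had a median of 1.26, and SPCC162.01c was the lowest at -2.70. Against the mean of the 11 other strains ght5 was higher by 3.20 (SE 0.237, adjusted p = 6.4e-05), the single called rise among 4193 exon probes (0.0238%), beside 2 called falls (0.0477%). It was also the single hexose-related gene of 10 tested that passed (10%, against 0.75% of all exon probes), and their median was 0.55.

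hsp16, a small heat-shock protein, followed with 2.78 and 3.37 (adjusted p = 0.012), against a median of 1.58 on the other arrays. It belongs to the chaperones, of which 3 of 8 tested rose and none fell (37.5% rose, against 0.75% of all exon probes), with hsp78, a mitochondrial chaperone (0.78 and 1.53), and psi1, a DnaJ-type chaperone (0.63 and 1.15). The median chaperone was at 0.68, against 0.03 for all exon probes. In the core stress response list, hsp16 and plr1, a pyridoxal reductase (1.05 and 1.90), rose (10.5%, against the same 0.75%), rds1 fell, and the median of 19 genes was 0.57. None of these risen genes passed the test against the mean of the other strains. rds1 did: it read -2.20 and -2.51 (SE 0.199, adjusted p = 0.000365), under all other arrays (-1.53 to -0.14), and its difference from the mean of the other strains was -1.44 (SE 0.212, adjusted p = 0.045).

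In the starvation-related lists the called genes were few, and their shares are set against 0.75% risen and 0.814% fallen over all exon probes. pho1, the secreted acid phosphatase, rose at 1.41 and 1.87 (adjusted p = 0.018), alone among 5 phosphate response genes tested (20%), though it had a value on just 6 of the other arrays. In the mating and nitrogen list of 14, isp5, an amino acid permease (1.42 and 1.20), isp6, a vacuolar protease (1.16 and 1.61, against at most 1.06 on the other arrays), and fus1, a formin for cell fusion (0.75 and 0.71), rose (21.4%) and mfm2 fell. For isp5, isp6 and fus1 the other arrays had medians of 0.02, 0.59 and 0.62. isu1, the scaffold for iron-sulphur clusters, was the sole called gene among 13 of iron uptake and use (7.69%), at 1.08 and 1.28 (adjusted p = 0.031). The other arrays had a median of 0.80 for isu1.

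Of 79 subtelomeric genes tested, 4 rose and 1 fell (5.06% rose, against 0.75% of all exon probes; median 0.12, against 0.03). ftm1 (2.38 and 1.81), ftm4 (2.19 and 1.65) and the galactose genes gal10, a UDP-glucose epimerase (1.72 and 1.40), and gal1, a galactokinase (1.16 and 1.02), rose. The other arrays had medians of 1.60, 1.40, 0.87 and 0.63 there. SPBPB10D8.01 went the other way. It read -2.20 and -1.82, whereas the other 18 arrays lay between -0.96 and 1.26, and it was lower than the mean of the other strains (-2.23, SE 0.257, adjusted p = 0.0037). The other called rises among the largest 10 were SPBC36.02c, SPCC18B5.02c and SPAC27D7.11c (means 1.77, 1.72 and 1.63). Among the falls, pfl8 (-2.52 and -1.98) and pfl3 (-2.08 and -1.34) encode flocculin-like surface proteins, and SPAC806.11 (-1.77 and -2.68) and SPAC2H10.01 (-1.93 and -1.69) complete the largest 10 with abp2, rds1 and the strain markers.

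**Figure D5:**
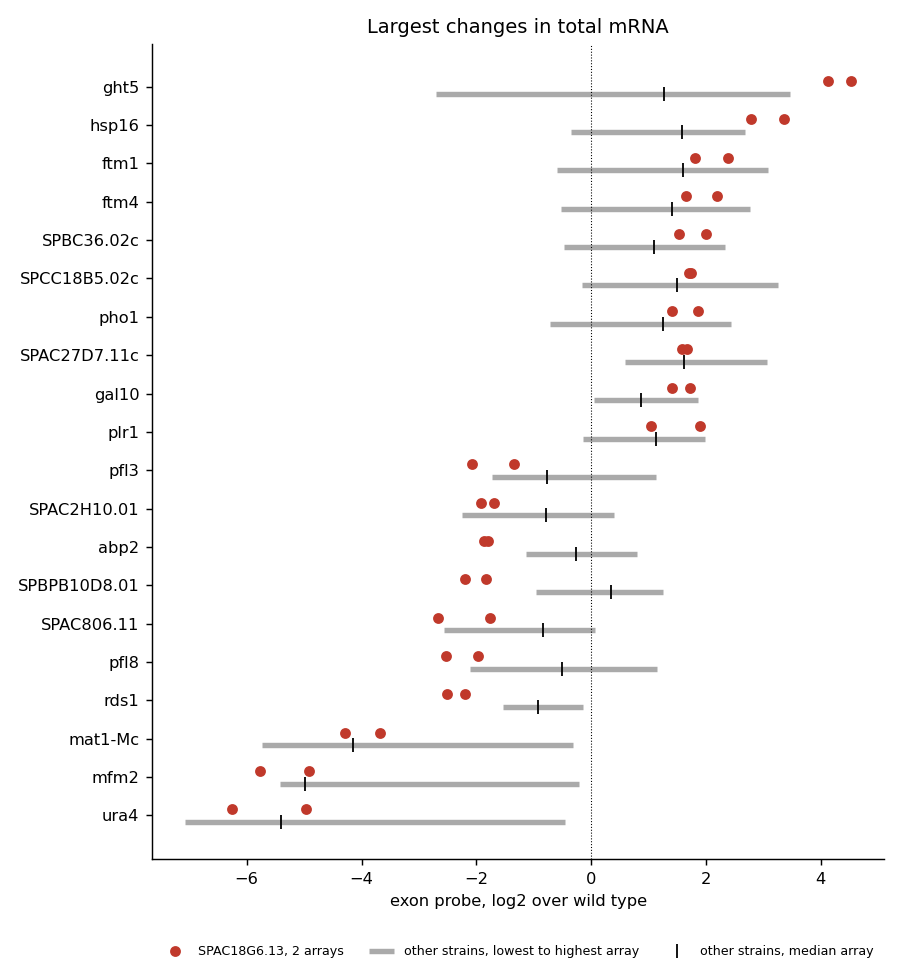
The 10 largest rises and 10 largest falls in total mRNA (exon probe, log2 over wild type, horizontal axis). Red points are the 2 SPAC18G6.13 arrays, above the grey bars, which span the lowest to highest array of the other strains, with a black mark at their median. ght5 and hsp16 lie above, and SPBPB10D8.01, rds1 and abp2 lie below, all other arrays.

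The total mRNA calls also needed both arrays. With replicate 1 left out 2 exon probes rose and 1 fell, and with replicate 2 left out 1 rose and 2 fell. Without the 4 arrays of other strains 141 rose and 108 fell, and with a variance trend 3 rose and 9 fell. With the replicate number as a block in the fit 210 rose and 135 fell. ght5 and rds1 were called against wild type in every setting tried.

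The RNA elimination factors themselves gave no call in total mRNA. None of the 17 exon probes of the NURS and RNA elimination list rose or fell, and their means ran from -0.48 to 0.38. red1 read 0.21 and 0.29, mtl1, the RNA helicase of the complex, 0.23 and -0.28, mmi1, the YTH protein that recognises meiotic transcripts, -0.10 and 0.25, and rrp6, an exosome nuclease, -0.23 and -0.03. The other members ranked from ctr1 (-0.48) and SPAC18G6.13 (-0.33) over gpl1, rmn1, cbc2, pab2, pla1, air1, cbc1, pir2 and mei2 to iss10 (0.34) and red5 (0.38). Their ratio rose in 2 of 12 events (16.7%, against 28.4% of all events), intron 2 of red1 (0.94 and 1.11, adjusted p = 0.015) and intron 1 of mmi1 (1.08 and 0.96, adjusted p = 0.029). Of the remaining events, 9 were above 0 and intron 3 of pab2 was at -0.23, and the median was 0.49 against 0.47 for all events. Events with a value on 1 of the SPAC18G6.13 arrays were not tested, among them those of air1 and cbc2 and 3 of mmi1. The mmi1 events were intron 2 (0.51), intron 3 (-0.34) and intron 4 of an alternative gene model (-0.69).

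The meiotic transcripts removed by this system gave no called rise in total mRNA. Of 9 tested, none rose and mcp7 fell, at -1.23 and -1.52 (adjusted p = 0.015), with a median of -0.20. The ratio of mcp7 intron 1 rose (2.31 and 2.71), and its junction probe, at -2.26 and -2.43, made up most of that rise. On the other arrays the same ratio had a median of 1.33 and reached 3.60. Intron 2 of mug8 rose as well (1.69 and 1.38, adjusted p = 0.0011), which makes 2 of the 3 events tested, against 28.4% of all events.

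Genes of the gene expression machinery gave few calls in total mRNA, and their shares of risen ratios were at or below the 28.4% of all events (median 0.47). Of 129 ribosomal protein genes on the array, 33 had an exon value on both SPAC18G6.13 arrays. No exon probe rose among these 33, and rpl102 fell (-0.81 and -0.84, adjusted p = 0.022), with 32 of the 33 below 0 and a median of -0.46. No such median was taken for the other strains. The ratio rose in 9 of 33 ribosomal protein events (27.3%), among them rpl3801, rps2502 (1.70 and 2.22), rpl102 (2.03 and 1.83) and rps1802 (mean 1.78). None of 54 ribosome biogenesis genes passed the test in total mRNA (median -0.29), and 3 of 11 events rose (27.3%), in wdr74 (1.82 and 1.63), nsa2 (1.85 and 1.79) and utp15 (1.60 and 1.37). None of 76 spliceosome genes passed it (median -0.08). Their ratio rose in 5 of 26 events (19.2%, median 0.09). Among these were sap62 of the SF3a complex (1.74 and 1.37, against at most 1.19 on the other arrays) and lsm6 (2.02 and 0.76) and lsm2 (1.25 and 1.05) of the U6 snRNP. The 5 also hold mud1 (1.35 and 1.73), which was listed by its symbol alone. Whether fission yeast mud1 belongs to the spliceosome was not checked.

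In the smaller lists no exon probe passed the test for 31 RNA decay genes, 22 heterochromatin and RNA interference genes, 18 cell cycle genes and 2 histone genes. The ratio rose for 2 of 6 RNA decay events, in the DEAD-box helicase gene ste13 (1.47 and 1.33) and the decapping factor gene edc3 (1.02 and 0.41), a share of 33.3% against 28.4% of all events. In lists of 2 events each, too few to read a share from, it rose for 1 of 2 events of heterochromatin genes (ago1), 1 of 2 of cell cycle genes (tos4, 1.29 and 1.20), 1 of 2 of phosphate genes (pho8, an alkaline phosphatase, 1.35 and 0.90) and 1 of 2 of chaperone genes (aha1, an activator of Hsp90, 1.58 and 0.95). eri1, a nuclease that degrades small interfering RNA, lost junction signal, at -2.63 and -1.42 (adjusted p = 0.027).

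Few events told this strain from the others. All arrays are labelled with the same wild type. The contrast with the mean of the 11 other strains asks where the SPAC18G6.13 arrays differ from the rest, with the dye orientation cancelled. That mean includes smd3 replicate 1 and pwi1 replicate 1, which lacked the falls in the strain markers measured on them. For the 4 strains with 1 array it holds replicate 1 alone, so that replicate numbers are not balanced in it. Over the 414 events the contrast could be fitted to, the ratio was higher for 14 (3.38%) and lower for 1 (0.242%), with a median difference of 0.05. The largest were intron 1 of etf2 (2.52 and 2.25 on the SPAC18G6.13 arrays, difference 1.88, adjusted p = 0.026), SPBC577.03c (2.70 and 1.76, 1.87, adjusted p = 0.0097), mrm1 (2.96 and 2.71, 1.76, adjusted p = 0.033), apl5, an AP-3 adaptor subunit (1.56 and 1.57, 1.70, adjusted p = 0.0097) and ppx1, an exopolyphosphatase (2.055 and 2.130, 1.67, adjusted p = 0.0097). The medians of the other arrays for these 5 were between -0.01 and 1.20, and the highest other array lay above at least 1 of the SPAC18G6.13 arrays for each. Intron 2 of mug8 was above all 16 other arrays that measured it (at most 1.17). The single lower event was intron 3 of elo1, for which the other 18 arrays ran from -0.48 to 1.57 (difference -1.79, SE 0.288, adjusted p = 0.0058). No event was called with either SPAC18G6.13 array left out, 85 of 402 were without the 4 arrays of other strains, and against the mean of the 7 other strains with 2 arrays 6 of 1230 were.

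On the separate probes, 1 of 564 intron probes was higher (rpl2501, 0.177%) and 1 lower (cnp3 intron 2), and 6 junction probes were lower (0.164%) of 3649, none higher. The junction probes were the first 2 of cnp3 and both junctions of SPAC1834.12 (-1.87 and -2.08, and -1.57 and -1.72, against -1.25 and -1.08 as the lowest on the other arrays), with ppx1 (-1.23 and -1.23) and nrk1 (-1.25 and -1.10). On the junctions, too, no probe was called with either SPAC18G6.13 array left out.

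Ctr1 and the product of SPAC20H4.06c were both recovered with Mtl1 in earlier purifications, and their deletion strains were compared singly. Against ctr1, no event of 1180 differed in the ratio after adjustment, and 128 had an unadjusted p under 0.05. Without ctr1 replicate 2 and the other 3 arrays 209 of 1303 differed. On the intron probes, 5 were higher than on the ctr1 arrays (0.352% of 1420), those of rpl2501, tbp1, vma13, rpa12 and swp1, and 2 were lower, both of cnp3 (0.141%). Both junction probes of SPAC1834.12 were lower than on the ctr1 arrays (-1.80 and -1.93, 0.0488% of 4102). Intron 4 of vma13, a subunit of the vacuolar proton pump, read 2.23 and 1.90, and its highest value on any other array was 0.76. In total mRNA ght5 was higher (3.67, adjusted p = 0.000365, 0.022% of 4542), and SPBPB10D8.01, cbm1 and rds1 were lower (-2.92, -2.40 and -1.90, 0.0661%). Without the 4 arrays 50 exon probes differed from ctr1. Compared with SPAC20H4.06c, the ratio was higher for 1 of 764 events (0.131%) and lower for 5 (0.654%), in ate1, elo1, mug65, rbd4 and cog6. The higher one was mug161 intron 3 (2.81 and 2.53 against 1.07 and 0.87). Its intron probe read 0.51 and 0.85 against 0.53 and 0.80, so that its junction probe made up the difference. None of these 6 calls was made with either SPAC18G6.13 array left out, and 48 events differed without the 4 arrays of other strains. On the intron probes 1 of 950 was higher (rpl2501, 0.105%) and 11 were lower (1.16%), including those of ate1, cog6, mug65 and rbd4 and both of cnp3. ate1 intron 5, of the arginyl transferase gene, read -0.85 and -0.30 on the SPAC18G6.13 arrays, against 1.93 and 1.88 on the SPAC20H4.06c arrays (difference -2.48, SE 0.491, adjusted p = 0.034). In total mRNA ght5 and gpl1, the gene deleted in the other strain, were higher (0.044% of 4543) and SPBPB10D8.01 was lower (0.022%).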

How the data were processed

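The authors hybridised a deletion strain (Cy3) and wild type (Cy5) to each splicing-sensitive 2-colour array and deposited 1 log2 value per probe, for deleted over wild-type RNA. How background was corrected, how arrays were normalized and why some values are empty is information not given in the sources used here. Without intensities, nearness to background is unknown. The 2 deposited tables held equal values in all 304160 cells, and the SPAC18G6.13 columns had medians of -0.002462 and 0. Control spots (536) were not used. Of 5081 gene identifiers, 4806 matched RefSeq (ASM294v3, used for names and gene order).

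The intron minus junction ratio was taken within each array. One limma fit (version 3.58.1, R 4.3.3) held all 20 arrays with 1 mean per strain, which share the estimate of the spread. The SPAC18G6.13 mean was tested against 0, which leaves out the wild type's own spread, and against the mean of the 11 other strains, ctr1 and SPAC20H4.06c. These comparisons share the SPAC18G6.13 arrays and the wild type. Benjamini-Hochberg adjustment ran over all features of a type measured on both SPAC18G6.13 arrays, with calls at an adjusted p under 0.05, and the code was tested on simulated data. Features compared with another strain were measured on every array of it, or on at least 1 array of each of the 11.

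Named features were the 10 largest rises and 5 largest falls in the ratio. The 5 largest each way for intron and junction probes and the 10 each way for exon probes were added. All these were past the test against wild type with the same sign on both arrays. Each contrast added the 5 largest each way past its test, with no rule on sign. Also named were the deleted gene, the 2 screened introns, the NURS list and the 4 largest called members of each other list. SPAC18G6.12c, the exon and last junction probes of cnp3 and introns 1 and 2 of elo1 were picked after their values were seen. Members and lists were chosen with earlier results of these data known. Alternatives were a replicate block, leaving out arrays, centring on exon probes, a variance trend and complete features. pwi1 replicate 1 was left out only in the fit of the 2 SPAC18G6.13 arrays alone.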

Additional observations from a re-analysis of the deposited data

How the results depend on the processing

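Against wild type, leaving out either SPAC18G6.13 array gave 33 to 156 risen and 0 to 7 fallen ratios, 1 to 176 risen and 0 to 22 fallen intron probes, 0 to 1 risen and 1 to 21 fallen junction probes, and 1 to 2 risen and 1 to 2 fallen exon probes. Without both smd3 arrays, SPCC162.01c and ctr1 replicate 2, 615 ratios rose and 39 fell, 623 intron probes rose and 65 fell, 55 junction probes rose and 262 fell, and 141 exon probes rose and 108 fell. With features on all 20 arrays, which are fewer, 102 ratios rose and 3 fell of 276 (median 0.62), and 105 intron probes rose and 8 fell of 413. A trended variance gave 0 risen and 28 fallen junction probes and 3 risen and 9 fallen exon probes. The 2 arrays fitted alone gave 34 fallen ratios, 74 fallen intron probes, 69 fallen junction probes, and 280 risen and 189 fallen exon probes. Centring on exon probes gave 58 fallen exon probes. The causes were not tested.

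Against the mean of the other strains, leaving out either array gave 0 to 0 ratio calls, 0 to 1 intron, 0 to 0 junction and 1 to 1 exon calls, and the set without the 4 arrays gave 85, 74, 12 and 5. The mean of the 7 other strains with 2 arrays, an alternative chosen after seeing the data, gave 6 ratio calls. Against ctr1, leaving out an array gave 1 to 2 exon calls, and the set without the 4 arrays gave 209 ratio and 50 exon calls. Against SPAC20H4.06c these gave 0 to 0 and 48 ratio calls.

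The sources do not say what a replicate number marks. The differences of replicate 1 minus 2 correlated with those of the 7 other paired strains at 0.189 to 0.633 for the ratio, 0.0776 to 0.619 for introns, -0.0278 to 0.765 for junctions and 0.0356 to 0.78 for exon probes. aar2 was lowest throughout, and the other 6 strains were at 0.433 or more for exon and 0.42 or more for junction probes. The fit without the block was kept because aar2 did not deviate with the others and the meaning of the number is unknown. All replicate 2 columns had a median of 0, and the replicate 1 columns ran from -0.02663 to 0.01136. Whether the number marks a batch was not tested. With the number as a replicate block, 65 junction probes rose and 278 fell, 210 exon probes rose and 135 fell, and calls against the other strains numbered 43 for the ratio, 17 for junctions and 7 for exon probes, with 5 exon calls against SPAC20H4.06c. The block gave 511 risen ratios. No named call changed sign in the settings run. Named values short of the test did in 6 cases without replicate 1, 8 without replicate 2 and 1 with exon centring, which also put the exon median at -0.001472. Of 98 named calls against wild type 12 held in all settings, and of 29 named calls against other strains 4 did. Those 4 include gpl1, the gene deleted in the strain compared. The separate intron and junction calls against ctr1 and SPAC20H4.06c were not run in the other settings and are not among the 29.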

Other observations

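Probes outside the exon, intron and junction sets gave no calls on the SPAC18G6.13 arrays. Of 246 exon-skipping junction probes tested, of 405 on the array, none rose or fell in limma after adjustment, 38 had an unadjusted p under 0.05, and the median was -0.37 (log2 over wild type). Of 92 probes for noncoding RNA, of 126, none rose or fell, 22 had an unadjusted p under 0.05, and the median was -0.66.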
